A study of Mus musculus with 2 samples.

Results

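Immunoglobulin A (IgA) is made by plasma cells beneath the gut epithelium, joined into polymers by the J chain, and carried through the epithelial cell by the polymeric immunoglobulin receptor. The receptor takes up its ligand at the basolateral side, crosses the cell in vesicles and is cleaved at the apical side, so that IgA reaches the lumen with part of the receptor attached. The neonatal Fc receptor (FcRn), a heavy chain paired with beta-2 microglobulin, carries IgG in a separate route. The 6 genes described here are therefore not all made by the same cells. Pigr, the receptor for polymeric IgA, is a gene of the epithelium, and Fcgrt, the FcRn heavy chain, is not particular to it. Igha, Ighm, Igkc and Jchain encode the alpha and mu heavy chains, the kappa light chain and the J chain of plasma cells and B cells. They were chosen by symbol, and all 6 of them, out of 22350 symbols, were listed above 0 in both libraries.

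Colon epithelial cells of C57BL/6 mice were profiled by messenger RNA sequencing, as 1 library of Pkm2-/- and 1 library of wild type. Both genotypes had received 2.5% dextran sulfate sodium (DSS), which injures the colon lining, for 3 days, and no library without DSS was analysed here. The sources used here do not give the age or sex, the number of animals behind a library or the cells in which Pkm2 was deleted. Values are FPKM, fragments counted per kilobase of transcript and divided by the mapped total, which can be compared between genes because they are divided by length. With 1 library per genotype there was no replicate error and no test, so every difference describes these 2 libraries. A gene was counted as apart when log2((Pkm2-/- FPKM + 1)/(wild type FPKM + 1)) reached 1 in either direction and its mean was at least 1 FPKM.

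As checks of the libraries, Pkm, which yields both the Pkm1 and Pkm2 isoforms, stood at 86.2 FPKM in the Pkm2-/- library and 281 FPKM in the wild type library. The files implied about 21200000 fragments in the Pkm2-/- and 19200000 in the wild type library. All 12 epithelial markers were listed, with summed levels of 15531 FPKM in the Pkm2-/- and 14398 FPKM in the wild type library, and none was at least 2-fold apart. Markers of fibroblasts, smooth muscle and endothelium summed to 4.51 FPKM in the Pkm2-/- library, where 11 of 14 were listed, and 7.78 FPKM in the wild type library, where 12 were listed.

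The receptor genes and the plasma cell transcripts did not differ alike. Pigr was slightly lower in the Pkm2-/- library and Fcgrt was lower too, both by much less than 2-fold, whereas Igha, Igkc and Jchain were 3.49-fold, 4.42-fold and 3.55-fold higher in FPKM and Ighm was 1.47-fold higher. On the log2 scale with 1 FPKM added, Igha and Igkc counted as at least 2-fold higher, 2 of the 6 members, and no member counted as lower. Over all genes that passed the same minimum, 12429 in number, 1.42% counted as higher and 1.90% as lower, and their median log2 ratio was 0.06. These shares are the background for the counts of each list below. On the same scale 90.2% of these genes lay within 1.5-fold, so closeness alone does not set a list apart. In bulk samples, more cells of a type and more RNA per cell cannot be told apart.

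**Figure D1:**
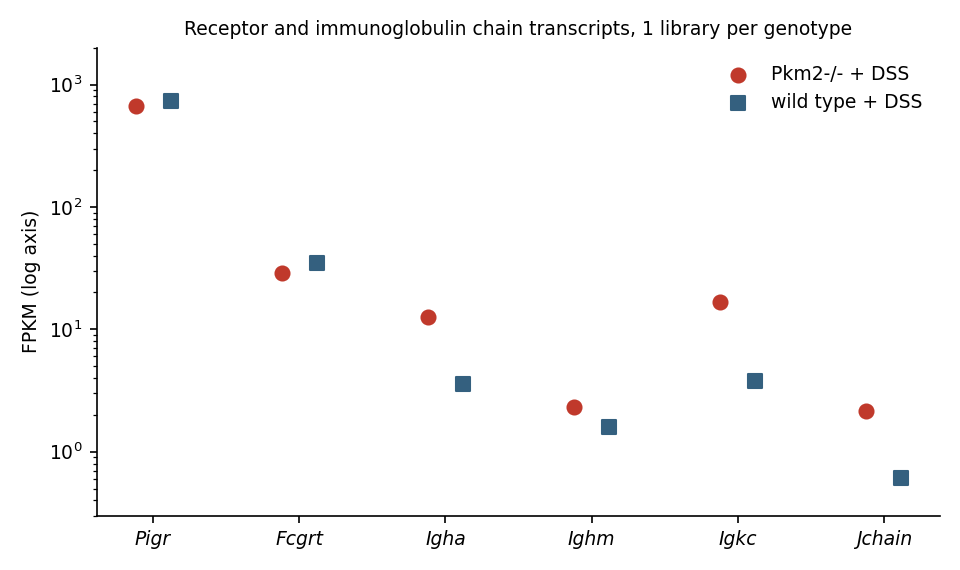
FPKM (log axis) of the 6 genes in the Pkm2-/- library (red circles) and the wild type library (blue squares), both after DSS, with 1 point per library and no error bar because there is 1 library per genotype. The points for Pigr and Fcgrt lie close together, while Igha, Igkc and Jchain are higher in the Pkm2-/- library.

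Pigr (ENSMUSG00000026417, chromosome 1, 130826684 to 130852249 on GRCm38, plus strand) was the most abundant member by far. It stood at 674 FPKM in the Pkm2-/- library and 729.7 FPKM in the wild type library, and it ranked 69 of 20575 symbols in Pkm2-/- and 61 of 20767 in wild type. The ratio of Pkm2-/- over wild type was 0.924 (95% counting interval 0.913 to 0.935), from about 55120 fragments in Pkm2-/- and 53981 in wild type, and by its shortest transcript the interval was 0.899 to 0.949. The interval covers counting error alone, neither animals nor preparations, and at this depth even a small difference leaves a ratio of 1 outside it. Relative to Epcam, a surface protein of epithelial cells, Pigr stood at 0.946 per Epcam FPKM in the Pkm2-/- library and 1.25 in the wild type library. Relative to the 12 epithelial markers together it made up 4.34% of their sum in Pkm2-/- and 5.07% in wild type. The genes closest to Pigr in log2(FPKM + 1) over both libraries were the ribosomal protein genes Rpl7a (672 FPKM in Pkm2-/- and 696 in wild type), Rps24 (672 in Pkm2-/- and 688 in wild type) and Rps6 (693 in Pkm2-/- and 689.8 in wild type), a likeness that rests on 2 values per gene.

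The start of Pigr is shown because Irf1, an interferon-linked factor known to act on the human gene and given next, differed between the libraries. The RefSeq sequence of the 250 bases before the start (GRCm38.p6, chr1:130826434-130826683, plus strand) has an E-box, the letters CACGTG, in capitals, 71 bases before the start:
Pigr before the start: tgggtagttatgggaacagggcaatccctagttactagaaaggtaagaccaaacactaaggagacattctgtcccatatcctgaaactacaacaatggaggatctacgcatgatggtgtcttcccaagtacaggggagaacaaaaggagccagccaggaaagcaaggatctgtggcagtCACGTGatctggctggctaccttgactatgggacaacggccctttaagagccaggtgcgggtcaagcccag
The next 30 bases (chr1:130826684-130826713) hold, in capitals, a match on the minus strand to AAANNGAAA, a shortened form of the interferon-stimulated response element that was searched after the sequence had been seen:
Pigr after the start: aaaacagTTTCAGTTTtgacaatagtcacc
Further on, 40 bases after the start, stands TTCCTGGAA, a match to TTCNNNGAA, a pattern known as the gamma-activated site. Both strands of all 32851 RefSeq promoters of 300 bases were searched. CACGTG was found in 7.15% of them, AAANNGAAA in 10.6%, TTCNNNGAA in 8.30% and a loose form of the kB pattern, which Pigr also holds, in 50.8%. The full interferon-stimulated response element, which contains the shortened one, occurs in 3.44% of promoters, and the octamer ATGCAAAT, which is bound by factors of B cells, in 1.74%. Neither was in the Pigr window, and the windows of Jchain and Fcgrt held no match to any of these patterns. A match is only a description of letters and names no bound site.

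Receptors and factors known to drive transcription of this gene, in part from human cells, were compared next. Of 26 such genes 24 passed the minimum of 1 FPKM. In the Pkm2-/- library 2 of them were at least 2-fold higher and none was lower, and the median log2 ratio over the 24 was 0.18. Irf1, an interferon regulatory factor, stood at 247 FPKM in the Pkm2-/- library and 103 FPKM in the wild type library, 2.41-fold higher. The Pigr ratio beside it was 0.924. Hnf4a, a factor of epithelial identity, stood at 190.3 FPKM in Pkm2-/- and 168 FPKM in wild type. Other genes of the list, chosen after their values were seen, also lay within 2-fold. Usf1, which binds E-boxes, was at 26.8 FPKM in Pkm2-/- and 19.4 in wild type, and the interleukin 4 receptor chain Il4ra was at 20.6 FPKM in Pkm2-/- and 12.3 in wild type. The interleukin 17 receptor chain Il17ra was at 4.06 FPKM in Pkm2-/- and 4.22 in wild type, and Rela, a subunit of NF-kB, at 12.97 FPKM in Pkm2-/- and 11.2 in wild type.

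The genes that move the receptor through the cell were close in both libraries. Of 29 genes of apical and transcytotic traffic 27 had a mean of at least 1 FPKM, and none was at least 2-fold apart in either direction. Over all genes 1.42% were higher and 1.90% lower, so a count of 0 is near that background. Their median log2 ratio was 0.07, near the 0.06 of all genes, and their ratios ran from -0.70 to 0.49. Rab25, a small GTPase of the apical recycling compartment, stood at 131 FPKM in the Pkm2-/- library and 119.8 FPKM in the wild type library. Rab5c, of early endosomes, stood at 87.8 FPKM in Pkm2-/- and 79.1 FPKM in wild type. The lowest ratio was that of the phospholipid scramblase gene Plscr1 at 52.4 FPKM in Pkm2-/- and 85.9 FPKM in wild type, and the motor Myo5b, which works with Rab11 vesicles, stood at 30.1 FPKM in Pkm2-/- and 39.6 FPKM in wild type, both named after their values were seen.

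Fcgrt (ENSMUSG00000003420, chromosome 7, 45092990 to 45103851, minus strand) stood at 28.98 FPKM in the Pkm2-/- library and 34.5 FPKM in the wild type library. The ratio was 0.839 (95% counting interval 0.772 to 0.912), from about 1090 fragments in Pkm2-/- and 1175 in wild type by its longest transcript of 1770 bases. By its shortest annotated transcript of 127 bases the interval was 0.609 to 1.16, which includes 1. Its partner chain B2m, which is shared with MHC class I molecules, went the other way and stood at 2472 FPKM in Pkm2-/- and 1012 FPKM in wild type, 2.44-fold higher. B2m per Fcgrt was accordingly 85.3 in the Pkm2-/- library and 29.3 in the wild type library. Over the 16 genes of the list of Fc receptors, which holds Pigr, Fcgrt and B2m, 8 passed the minimum of 1 FPKM, of which 2 were at least 2-fold higher and none lower, with a median log2 ratio of -0.03. The other higher gene was Fcer1g, the signalling chain of Fc receptors on myeloid and natural killer cells, at 4.22 FPKM in Pkm2-/- and 0.804 FPKM in wild type. Its mean reached 1 FPKM only through the Pkm2-/- library. Of the 14 genes of the list found in either library, 10 were higher in Pkm2-/- and 4 lower. Those higher included Fcgr1, Fcgr2b, Fcgr3 and Fcgr4, all below 1 FPKM in both libraries and named after their values were seen. Fcgbp, a mucus protein of goblet cells that was named for binding IgG Fc, stood at 365 FPKM in Pkm2-/- and 601 FPKM in wild type, 1.65-fold lower.

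The IgA heavy chain gene Igha (ENSMUSG00000095079, chromosome 12, 113254830 to 113260236, minus strand) stood at 12.5 FPKM in the Pkm2-/- library and 3.58 FPKM in the wild type library. It was 3.49-fold higher (95% counting interval 2.95 to 4.14), from about 675 fragments in Pkm2-/- and 175 in wild type by its longest annotated transcript of 2540 bases. By its shortest transcript of 1100 bases the fragments were about 292 in Pkm2-/- and 76 in wild type and the interval was 2.69 to 4.53. The lower bound stayed above 2 with either length. The genes closest to Igha over both libraries were Coro1a (12.7 FPKM in Pkm2-/- and 4.20 in wild type), an actin-binding protein of leukocytes, Ttyh1 (11.9 in Pkm2-/- and 4.27 in wild type) and Ms4a18 (12.7 in Pkm2-/- and 2.87 in wild type), again from 2 values per gene.

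The kappa light chain gene Igkc (ENSMUSG00000076609, chromosome 6, 70726435 to 70726966, plus strand) had the largest ratio of the members. It stood at 16.8 FPKM in the Pkm2-/- library and 3.81 FPKM in the wild type library, 4.42-fold higher (95% counting interval 3.11 to 6.39), from about 190 fragments in Pkm2-/- and 39 in wild type. Igkc per Igha was 1.35 in Pkm2-/- and 1.06 in wild type, so that both chains were present at like levels per length in each library.

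Jchain (ENSMUSG00000067149, chromosome 5, 88519809 to 88527891, minus strand), the polypeptide that joins IgA and IgM into polymers and is needed for binding to the receptor, was low in both libraries. It stood at 2.15 FPKM in the Pkm2-/- library and 0.605 FPKM in the wild type library, 3.55-fold higher (95% counting interval 2.33 to 5.69), from about 107 fragments in Pkm2-/- and 27 in wild type, and by its shortest transcript the interval was 2.07 to 6.71. With 1 FPKM added its log2 ratio was 0.97, just under the threshold, which it passed at 1.01 when libraries were scaled to the sum outside the mitochondrial genome, and its mean reached 1 FPKM only through the Pkm2-/- library. Jchain per Igha was 0.172 in Pkm2-/- and 0.169 in wild type, a nearly equal proportion.

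Ighm (ENSMUSG00000076617, chromosome 12, 113418558 to 113422730, minus strand), the heavy chain of IgM, was the member of the immunoglobulin genes with the smallest ratio. It stood at 2.33 FPKM in the Pkm2-/- library and 1.58 FPKM in the wild type library, 1.47-fold higher (95% counting interval 1.02 to 2.11), from about 84 fragments in Pkm2-/- and 52 in wild type, and by its shortest transcript the interval was 1.01 to 2.21. Igha per Ighm was 5.37 in Pkm2-/- and 2.26 in wild type.

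**Figure D2:**
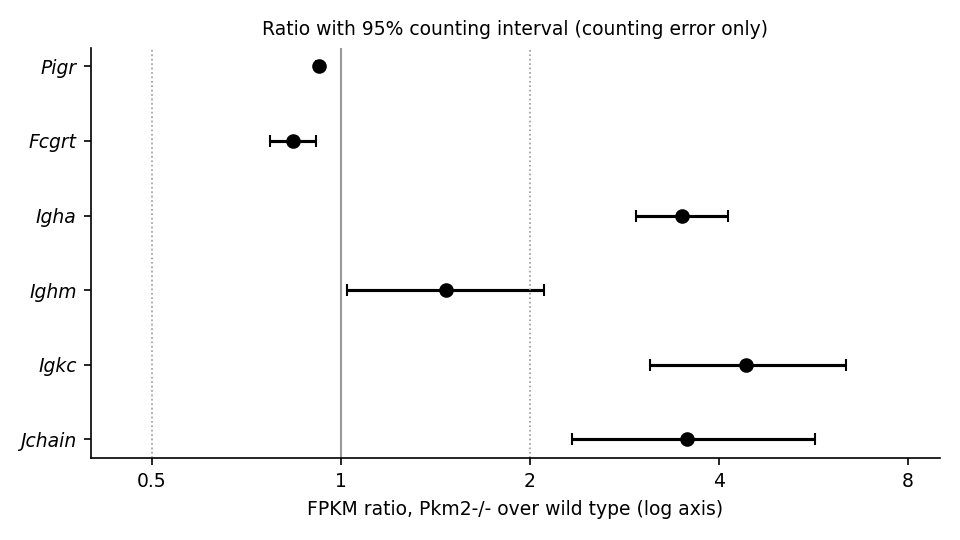
FPKM ratio of Pkm2-/- over wild type (log axis) for the 6 genes, with 95% counting intervals, by the longest transcript, as bars that cover counting error only, a solid line at 1 and dotted lines at 0.5 and 2. Pigr and Fcgrt lie just below 1, Ighm has an interval of 1.02 to 2.11, and the intervals of Igha, Igkc and Jchain lie above 2.

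Set against each other, Pigr exceeded the plasma cell transcripts in both libraries, and by less in the Pkm2-/- library. Both libraries are of colon epithelial cells, and the part of cell content in this contrast was not tested. The kappa chain is also not particular to IgA. The 4 plasma cell transcripts Igha, Ighm, Igkc and Jchain summed to 33.8 FPKM in the Pkm2-/- library and 9.58 FPKM in the wild type library, 3.53-fold higher. Pigr FPKM per FPKM of these transcripts was 19.9 in Pkm2-/- and 76.2 in wild type, a 3.82-fold lower ratio. With single chains in the denominator the ratio was 3.78-fold lower against Igha, 4.79-fold lower against Igkc, 3.85-fold lower against Jchain and 1.59-fold lower against Ighm. Relative to Epcam the 4 transcripts stood at 4.75% in the Pkm2-/- library and 1.64% in the wild type library.

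The other constant-region genes showed which antibody classes the libraries held. Of 14 genes of the list, which holds Jchain, 12 were listed in either library and 4 had a mean of at least 1 FPKM, the 4 transcripts above. Among the heavy chains, which summed to 17.9 FPKM in Pkm2-/- and 5.70 FPKM in wild type, Igha made up 70.0% in the Pkm2-/- library and 62.9% in the wild type library. Ighm made up 13.0% in Pkm2-/- and 27.8% in wild type, and the IgG genes together 14.6% in Pkm2-/- and 6.61% in wild type. Thus IgA was the leading class in both libraries. The IgG genes were named after their values were seen and are similar in sequence, so their separate values are uncertain. In the wild type library all of them were below 1 FPKM, and no counting interval was computed, so the IgG shares are uncertain too. Ighg2c stood at 1.43 FPKM in the Pkm2-/- library and was listed at 0 in the wild type library, Ighg2b stood at 0.996 FPKM in Pkm2-/- and 0.117 in wild type, and Ighg1 at 0.0767 FPKM in Pkm2-/- and 0.259 in wild type. The lambda light chain genes, which are close copies of each other, summed to 0.254 FPKM in Pkm2-/- and 0.236 FPKM in wild type, 1.49% of all light chain constant FPKM in Pkm2-/- and 5.83% in wild type. These sums were nearly equal, so the shares differ through Igkc. No lambda gene reached 1 FPKM in either library, and no counting interval was computed, so both shares are uncertain.

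Variable segments, the parts of antibody genes that are joined upstream of the constant region and bind antigen, were listed in greater number in the Pkm2-/- library. Of 98 segments listed in either library, 84 were listed in the Pkm2-/- library and 29 in the wild type library. Over all 22350 symbols, 20575 were listed in Pkm2-/- and 20767 in wild type. A segment listed in 1 library alone need not be absent from the other. They summed to 46.0 FPKM in Pkm2-/- and 7.16 FPKM in wild type, 6.43-fold higher, from about 361 fragments in Pkm2-/- and 52 in wild type (95% counting interval of the fold 4.69 to 8.57). Heavy chain segments numbered 39 in Pkm2-/- and 19 in wild type, kappa segments 43 in Pkm2-/- and 9 in wild type, and lambda segments 2 in Pkm2-/- and 1 in wild type. No single segment made up most of the sum over all segments. The highest in the Pkm2-/- library was Ighv8-8 at 3.65 FPKM, which was listed at 0 in the wild type library, and the highest in the wild type library was Iglv1 at 0.612 FPKM, against 0.967 FPKM in the Pkm2-/- library. Segments are short and many resemble each other, so a value of a single segment rests on few fragments and can include reads of another, and how many are listed depends on depth.

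**Figure D3:**
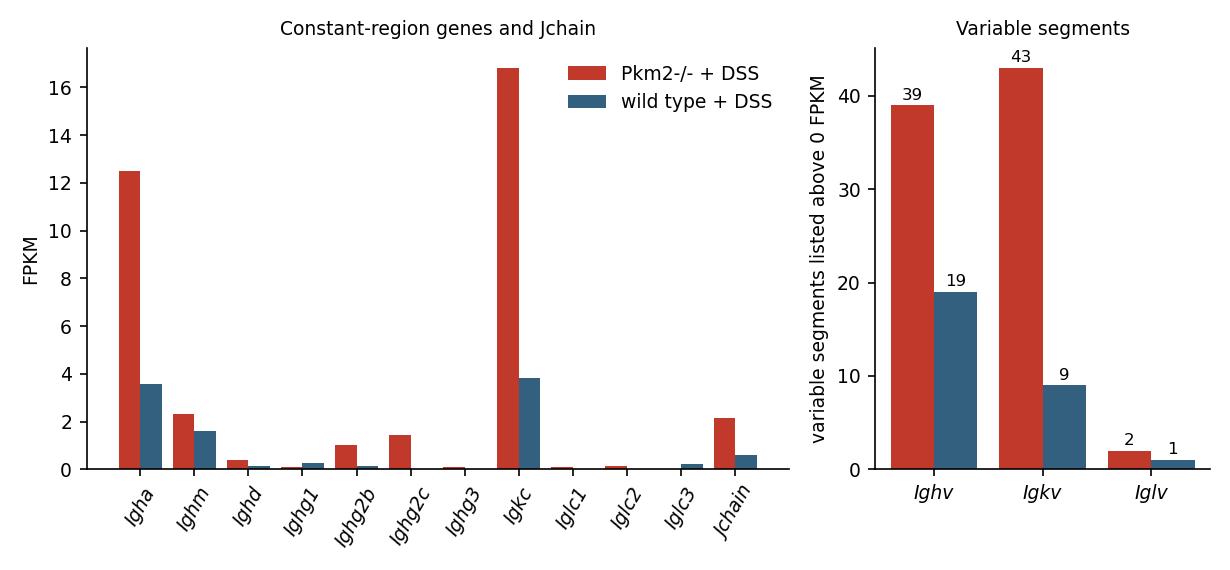
Left, FPKM of 12 genes, the immunoglobulin constant regions and Jchain, and right, the number of heavy (Ighv), kappa (Igkv) and lambda (Iglv) variable segments listed above 0 FPKM, with the Pkm2-/- library in red and the wild type library in blue. Igha and Igkc are the tallest pairs on the left, and on the right the Pkm2-/- library has 39 heavy and 43 kappa segments, against 19 heavy and 9 kappa segments in the wild type library.

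Genes of the cells that make these chains, outside the immunoglobulin genes, were compared as well, and their list summed to 501 FPKM in the Pkm2-/- library and 524 FPKM in the wild type library. Of 18 plasma cell genes other than the chains, 7 passed the minimum of 1 FPKM. In the Pkm2-/- library 1 of them was at least 2-fold higher and none was lower, and the median log2 ratio over the 7 was -0.11. The higher gene was Itgb7, a chain of the integrin by which lymphocytes home to and stay in the gut, at 4.71 FPKM in Pkm2-/- and 0.984 FPKM in wild type. T cells carry it too, and its mean reached 1 FPKM only through the Pkm2-/- library. The most abundant genes of the list are also expressed by epithelium and were close in both libraries, with the secretory factor Xbp1 at 96.8 FPKM in Pkm2-/- and 110.4 in wild type and the disulfide isomerase Txndc5 at 211 FPKM in Pkm2-/- and 187 in wild type. Cd38, a surface enzyme of plasma cells and other cells, stood at 79.6 FPKM in Pkm2-/- and 119 in wild type. Sdc1, a surface proteoglycan of plasma cells and epithelium, stood at 57.8 FPKM in Pkm2-/- and 62.4 in wild type. The 11 genes of the list under the minimum of 1 FPKM included markers more particular to plasma cells, named after their values were seen. Mzb1, an endoplasmic reticulum protein of antibody secreting cells, stood at 0.303 FPKM in Pkm2-/- and was listed at 0 in wild type, and Tnfrsf17, the receptor BCMA, stood at 0.116 FPKM in Pkm2-/- and was listed at 0 in wild type. Derl3 was at 0.339 FPKM in Pkm2-/- and 0.182 in wild type, while Prdm1, a factor of plasma cell differentiation, was at 0.637 FPKM in Pkm2-/- and 0.615 in wild type. Tnfrsf13b, the receptor TACI, was at 0.262 FPKM in Pkm2-/- and 0.241 in wild type, the chemokine receptor Ccr10 at 0.924 FPKM in Pkm2-/- and 0.868 in wild type, and Eaf2 at 0.434 FPKM in Pkm2-/- and 0.604 in wild type. Ccr9 was at 0.967 FPKM in Pkm2-/- and 0.329 in wild type, and Itga4 at 1.05 FPKM in Pkm2-/- and 0.518 in wild type. Irf4 and Pou2af1 were also higher in Pkm2-/-, at very low levels. Of the 11 genes only Eaf2 was lower in the Pkm2-/- library, while Prdm1, Tnfrsf13b and Ccr10 were nearly equal in both libraries. B cell genes were listed for 16 of 18 symbols and summed to 3.09 FPKM in Pkm2-/- and 2.32 FPKM in wild type, most of it Cd37 (1.74 FPKM in Pkm2-/- and 1.45 in wild type), a gene of many leukocytes.

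T cell markers were higher in the Pkm2-/- library beside the immunoglobulin genes. The 16 T cell and cytotoxic lymphocyte markers, all listed in both libraries, summed to 128 FPKM in the Pkm2-/- library and 34.3 FPKM in the wild type library, 3.73-fold higher. Of the 16 markers 15 were higher in Pkm2-/-, and 9 of the 12 that passed the minimum counted as at least 2-fold higher. The median log2 ratio over the 12 was 1.28, against 0.06 over all genes. Cd3e, a chain of the T cell receptor complex, stood at 7.52 FPKM in Pkm2-/- and 2.05 in wild type, and the granule protease Gzma at 25.03 FPKM in Pkm2-/- and 3.34 in wild type. The macrophage, dendritic cell and neutrophil markers summed to 57.0 FPKM in Pkm2-/- and 62.5 FPKM in wild type over the same 14 of 16 genes, and S100a8 and S100a9 were listed in neither library. The sums are carried by Cd14 (24.1 FPKM in Pkm2-/- and 26.7 in wild type) and Ly6g (13.1 FPKM in Pkm2-/- and 25.4 in wild type), whereas 10 of the 14 listed genes were higher in Pkm2-/-. Among the 10, Csf1r, Adgre1 and Flt3 were below 1 FPKM in both libraries. Of the 10 that passed the minimum, 2 were at least 2-fold higher and none lower, with a median log2 ratio of 0.32. These were Fcer1g, given above, and the integrin chain Itgax at 1.71 FPKM in Pkm2-/- and 0.355 in wild type. Both reached the minimum only through the Pkm2-/- library, as did C1qb, Tyrobp and Itgam, so the myeloid median rests in part on such genes. It was -0.52 at a mean of at least 5 FPKM and 0.25 without a minimum. The part of lymphocyte content in the immunoglobulin differences was not tested.

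Factors that draw IgA cells to the gut or favour the switch to IgA were mostly close. Of 22 genes 8 passed the minimum of 1 FPKM. None of these was at least 2-fold higher in the Pkm2-/- library and 1 was at least 2-fold lower. The median log2 ratio over the 8 was 0.07. The lower gene was Aldh1a1, a retinaldehyde dehydrogenase that makes retinoic acid, at 29.4 FPKM in the Pkm2-/- library and 124 FPKM in the wild type library, 4.21-fold lower. Ccl28, an epithelial chemokine that attracts IgA plasma cells, stood at 21.6 FPKM in Pkm2-/- and 23.1 FPKM in wild type. Ltbr, the lymphotoxin beta receptor, stood at 40.7 FPKM in Pkm2-/- and 38.1 FPKM in wild type. The survival factors of plasma cells and B cells, named after their values were seen, were within 2-fold as well, with Tnfsf13 (APRIL) at 14.8 FPKM in Pkm2-/- and 13.8 in wild type and Tnfsf13b (BAFF) at 6.71 FPKM in Pkm2-/- and 4.67 in wild type.

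**Figure D4:**
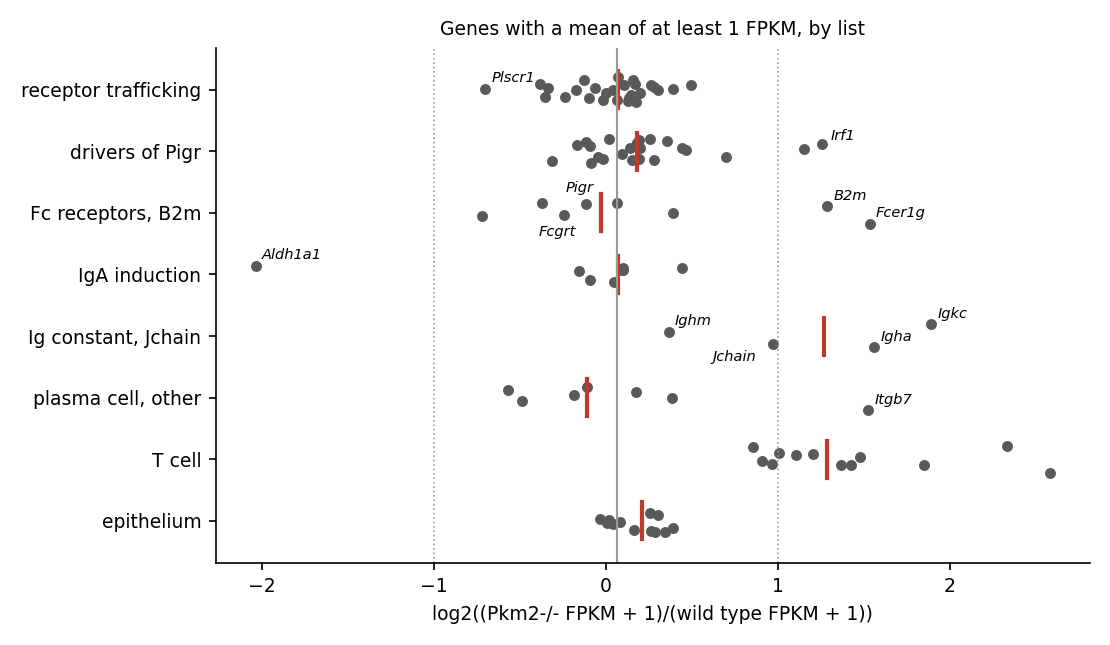
Log2 ratio of Pkm2-/- over wild type with 1 FPKM added (x axis) for genes that passed the minimum of 1 FPKM, by list, where each point is a gene, red bars are list medians, the solid line is the median of all genes and dotted lines mark 2-fold. Trafficking genes lie within 2-fold, Irf1, B2m and Fcer1g lie beyond 2-fold to the right, Aldh1a1 lies far to the left, and the immunoglobulin and T cell genes lie to the right of 0.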

How the data were processed

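Each library's table holds 1 FPKM value per Ensembl gene, with a symbol and a locus and no header. The authors' deposited values are FPKM as inferred from the submitters' processing notes, which name Cuffdiff 2.2.1 and 1.3.0, Cufflinks 2.2.1, TopHat2 2.1.1 and Bowtie2 2.2.9, and from the values. The notes name the build mm8, but GENCODE M21 holds 99.4% of the 22384 gene IDs, and for 99.9% of those the locus overlaps the gene on GRCm38, which is used here. The sources used here give neither strand use nor annotation release. Unlisted genes were set to 0, which need not mean no expression, and rows sharing a symbol were summed.

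Fragments were implied from the lowest values of single-transcript genes longer than 1.5 kb, which cluster at the worth of 1 fragment (0.0471 FPKM times kb in Pkm2-/-, 0.0520 in wild type). Counting intervals are Clopper-Pearson at 95% on these fragments with the longest transcript and cover counting error only. The calculation was run on simulated counts drawn from the counting model that the intervals assume. That run cannot show how the intervals hold in real libraries. Python 3.11.15, numpy 2.4.6, pandas 2.3.3 and scipy 1.17.1 were used.

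The members and gene lists were chosen with earlier results of these data known. Of each list, the genes at least 2-fold apart and the 3 most abundant were named, at most 5 by the size of the log2 ratio, and others are marked as named later. Some genes that this rule names are not reported here. Promoters came from RefSeq for the 3 matched members, Pigr, Jchain and Fcgrt.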

Additional observations from a re-analysis of the deposited data

How the results depend on the processing

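Directions of all 6 members were kept under every pseudocount and scaling tried, and 28 of 36 member values lay within the counting interval once its bounds were put on the log2 scale with 1 FPKM added, on which low genes have intervals nearer 0 than those of their plain folds. A pseudocount of 0.1 gave log2 ratios of 1.78 for Igha and 1.67 for Jchain, and a pseudocount of 5 gave 1.03 for Igha, 1.31 for Igkc and 0.35 for Jchain. Equal library medians gave a Pigr log2 ratio of -0.20, equal upper quartiles a value of -0.18, and scaling to the sum outside the mitochondrial genome a value of -0.066. Genes at least 2-fold higher and lower numbered 272 and 361 with a pseudocount of 0.1, 85 and 124 with 5, and 111 and 154 at a mean of at least 5 FPKM. With a pseudocount of 5 the count of genes apart was 0 for the plasma cell list, 1 for the Fc receptors, 3 for T cells and 0 for myeloid cells. At a mean of at least 5 FPKM it was 0 for plasma cell, 1 for Fc receptor and 0 for myeloid genes. A pseudocount of 0.1 gave 4 myeloid and 1 stromal gene, equal medians gave 1 and 1, and equal upper quartiles gave 1 myeloid gene. Of 75 list medians under other settings, 16 differed from the main value by more than 0.1. With a pseudocount of 5 the median was 0.77 for T cell genes and 0.69 for immunoglobulin constant genes. Without a minimum the plasma cell median was 0.04, and at a mean of at least 5 FPKM the myeloid median was -0.52. The log2 difference in Pigr per plasma cell transcript was -1.93, and -0.67 with Ighm alone and -2.26 with Igkc alone in the denominator. Variable segments of at least 1 FPKM numbered 8 in the Pkm2-/- library and 0 in the wild type library. The pseudocount acts most on low genes by its construction, and the cause of the other shifts was not tested. No paired analysis was possible because each genotype has 1 library, and no library could be left out. Low transcripts such as Jchain rest on few fragments, which limits the precision of their ratios.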
